A study of Mus musculus with 11 samples.

Results

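The 5 heat-shock protein genes described here were followed through every probe set of the array annotated with their symbols. They are Hspa1a and Hspa1b, which encode the heat-inducible cytosolic Hsp70 proteins, Hsp90aa1, which encodes the stress-inducible cytosolic Hsp90, and Hspd1 and Hspe1, which encode the mitochondrial chaperonin Hsp60 and its co-chaperonin Hsp10. The rule gave 7 probe sets for the 5 genes, out of 12488 probe sets and 8252 named genes. Hspa1a, Hspa1b and Hspe1 had 1 probe set each, and Hsp90aa1 and Hspd1 had 2 each.

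The study measured total RNA of whole brains on Affymetrix arrays, with 1 array per mouse. There were 5 null mice (2 male, 3 female), which lack the nicotinic receptor subunit β4, and 6 wild-type littermates (4 male, 2 female). All were untreated C57BL/6J mice aged 6 to 9 weeks. The null males were both 9 weeks old and the null females 7, 8 and 8 weeks, while the wild-type males were 9, 8, 6 and 6 weeks and the wild-type females 7 and 6 weeks. All 5 null mice and 3 of the wild-type mice have animal numbers that begin with the letters B4. The other 3 wild-type mice have numbers that begin with LT, and the labels do not say what these letters stand for. The LT mice were all 6 weeks old and the B4 wild-type mice 9, 8 and 7 weeks. Letters and age therefore cannot be told apart among wild-type mice. Chrnb4, the gene of the β4 subunit, was not analysed here, so the genotypes rest on the labels.

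Heat-shock proteins are chaperones, which bind unfolded proteins and help them reach or regain their folded form. Hsp70 proteins bind short exposed stretches of a client protein in cycles of ATP hydrolysis that Hsp40 proteins start and nucleotide exchange factors end. Hsp90 receives many clients from Hsp70, among them kinases and steroid receptors, with the help of co-chaperones. In the mitochondrial matrix, Hsp60 forms a barrel in which an imported protein folds, and Hsp10 is the lid of that barrel. Under stress the transcription factor Hsf1 binds heat shock elements, which are inverted repeats of the unit NGAAN, and raises transcription of these genes. Brain tissue has much of the constitutive Hsp70 and Hsp90 proteins at rest, while the inducible Hsp70 is known to be low in resting neurons.

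Hspd1 and Hspe1 are neighbours on chromosome 1 and run in opposite directions from a common control region, and Hspa1a and Hspa1b are neighbours on chromosome 17. Hsp90aa1 is on chromosome 12. RefSeq promoter windows of build GRCm38.p6, reaching from 250 bases before to 50 bases after a transcript start, were found for 4 of the 5 genes, in 5 windows, because Hspd1 has 2 starts. Hsp90aa1 was not among them. The stretches before the start are shown because they hold the matches to the heat shock element in these gene pairs. They are the sequence of Hspa1a at chr17:34972157-34972406 (minus strand), that of Hspa1b at chr17:34959239-34959488 (minus strand), and the interval at chr1:55087933-55088147 (plus strand) between the Hspe1 start and the Hspd1 start that faces away from it (start 1). Each is written 5′ to 3′, and capitals mark matches to the heat shock element cores GAANNTTC and TTCNNGAA, each of which reads the same on both strands.
Hspa1a: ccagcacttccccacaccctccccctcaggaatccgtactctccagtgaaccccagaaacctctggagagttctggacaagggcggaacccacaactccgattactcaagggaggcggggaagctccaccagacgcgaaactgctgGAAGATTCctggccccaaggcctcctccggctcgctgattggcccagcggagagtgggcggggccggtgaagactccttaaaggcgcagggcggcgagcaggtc
Hspa1b: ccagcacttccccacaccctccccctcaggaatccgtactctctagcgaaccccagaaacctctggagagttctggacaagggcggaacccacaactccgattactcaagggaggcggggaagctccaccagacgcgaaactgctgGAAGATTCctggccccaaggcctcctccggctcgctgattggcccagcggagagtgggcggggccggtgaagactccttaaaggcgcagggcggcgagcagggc
Hspd1 and Hspe1: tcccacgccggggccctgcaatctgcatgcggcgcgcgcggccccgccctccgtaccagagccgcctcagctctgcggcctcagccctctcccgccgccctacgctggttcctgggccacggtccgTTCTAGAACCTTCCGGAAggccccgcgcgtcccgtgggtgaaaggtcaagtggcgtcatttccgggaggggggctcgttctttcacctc

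The interval shared by Hspd1 and Hspe1 held 3 overlapping cores in a run of capitals, TTCTAGAA, GAACCTTC and TTCCGGAA, whose first letters lie 89, 84 and 79 bases before the Hspe1 start. Read toward Hspd1, the same cores come in the reverse order and begin 144 (TTCCGGAA), 139 and 134 (TTCTAGAA) bases before Hspd1 start 1. The other Hspd1 start (start 2) lies inside Hspe1, so the transcripts overlap by 96 bases, and its window held neither core. Hspa1a and Hspa1b each held the core GAAGATTC with its first letter 104 bases before the start, and CCAAT on the reverse strand 67 bases before it. TATAAA was in none of the 5 windows on either strand. Among all 32851 promoter windows of that table, 7.86% held GAANNTTC, 8.52% TTCNNGAA, 13.6% TATAAA and 37.4% CCAAT. The Hspa1a and Hspa1b windows of 300 bases differed at 4 positions, counted from 1 at the 5′ end of the window with the Hspa1a base first, namely C44T, T47C, T249G and C276T, and 3 of these lie before the start. A match is a description of letters and does not show that a factor was bound in these brains.

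**Figure D1:**
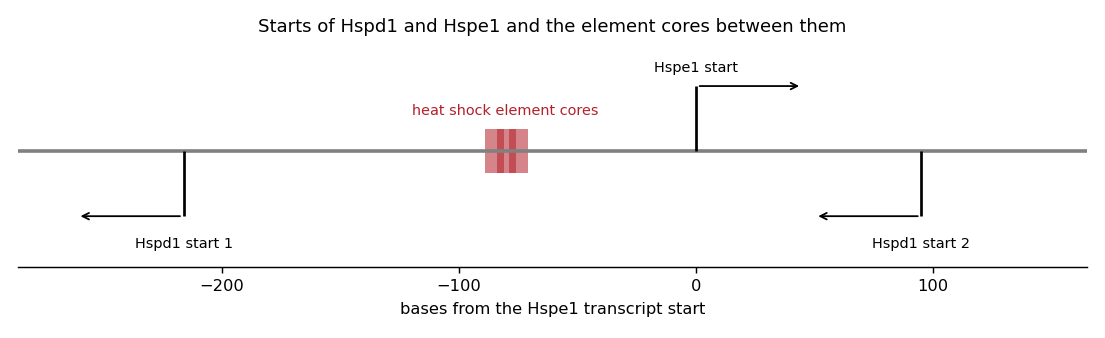
Map of the region between Hspd1 and Hspe1. The horizontal axis gives bases from the Hspe1 transcript start, arrows show the direction of transcription from each RefSeq start, and red boxes are the 3 overlapping heat shock element cores. The cores begin 89, 84 and 79 bases before the Hspe1 start and lie between it and Hspd1 start 1.

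The deposited value of a probe set is its MAS5 signal, an intensity on a linear scale. The trimmed mean signal was between 150.08 and 150.1 on all 11 arrays, and no 2 arrays were identical. The 2 male null arrays stood apart from the other 9. Their median signals were 58.3 and 56.3, against 43.6 to 49.75 on the others, and their ratios of 3′ to 5′ Gapdh signal, a measure of RNA or labelling quality, were 0.859 and 0.798, against 2.19 to 5.92 on the others. Gapdh signal was thus weighted to the 3′ end on the other 9 arrays and not on these 2. The low ratio does not mark these 2 as the poorer arrays. Their summed astrocyte markers (4 of 5 with a probe set) were 1410 to 1479, against 822.6 to 1260 in the others, and their microglia markers (5 of 5) 1036 to 1215, against 506.2 to 892.6. Choroid plexus markers (3 of 3) summed to 663.8 to 922.3, against 982 to 1762, and blood markers (4 of 5) to 2224 to 2231, against 2423 to 6101. Neuronal markers (4 of 5) summed to 6251 to 6841, against 6211 to 8238, and those of oligodendrocytes, endothelium and skeletal muscle overlapped too. The microglia marker Aif1 and the blood marker S100a9 were below the filter on low signals. Each sum is weighted to its brightest markers, and markers of a list differed in direction between all null and all wild-type brains. Mean Ttr (choroid plexus) was 933 against 1146, but Folr1 50.6 against 28.9. Hba-a1 (blood) was 3813 against 4117, but Alas2 42.3 against 34.8. Glul (astrocytes) was 550 against 358, but Gfap 263 against 285. C1qa (microglia) was 289.5 against 157, but Csf1r 288 against 317. Snap25, the brightest of the neuronal markers, was 5704 against 6025, but Gap43 717 against 562, Nefl 313 against 243 and Nefm 117 against 67.6. The sums do not show that a whole cell type changed. In whole tissue, fewer cells of a type and less RNA per cell cannot be told apart.

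One gene of the 5 stood out. Hspe1 had a signal 2.43-fold lower in the 2 male null brains than in the mean of the other 9, which include the 3 female null brains, and the genotype difference in males differed from that in females. Its partner Hspd1, transcribed from the same control region, did not pass the threshold in either sex, nor did Hspa1a, Hspa1b or Hsp90aa1 with all animals. Among B4 animals alone the male difference of Hsp90aa1 passed (-0.61, limma adjusted p = 0.0257). The Hspe1 call rests on the 2 arrays that stood apart, and on those arrays 32.6% of all tested probe sets passed the same test.

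The Hspe1 probe set 92829_at had signals of 433.9 and 379.2 in the male null brains and 1053, 899.7 and 1015 in the female null brains. In wild-type brains the lowest was 828.6, the median 994.3 and the highest 1082. Both male null brains lay below all other 9 brains, as they did for 16.5% of tested probe sets, while the 3 female null values fell inside the wild-type range. The mean was 407 ± 38.7 in male null brains (SD, n = 2) and 1031 ± 54.7 in male wild-type brains (SD, n = 4). In females it was 989 ± 79.8 in null brains (SD, n = 3) and 909 ± 113 in wild-type brains (SD, n = 2).

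In males the log2 difference of Hspe1, null minus wild-type, was -1.34 (SE 0.13, limma adjusted p = 1.9e-05), with a 95% confidence interval of -1.62 to -1.07. In females it was 0.13 (SE 0.14, limma adjusted p = 0.995), with an interval of -0.17 to 0.42. The female difference minus the male difference, the interaction of genotype and sex, was 1.47 (SE 0.19, limma adjusted p = 0.000768). Of the 7453 probe sets tested, 14.8% were lower in male null brains at an adjusted p under 0.05, and 7.25% had an interaction past the threshold in the direction of Hspe1. A more negative difference in males was found for 67 probe sets (0.899%), and a larger positive interaction for 90 (1.21%). The Hspe1 difference was thus among the steepest falls in male null brains, in a comparison where many probe sets fell.

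The male difference of Hspe1 did not rest on the LT animals. Among B4 animals the male difference was -1.35 (limma adjusted p = 0.00013), where 30.5% of probe sets passed, and the interaction was 1.35 (limma adjusted p = 0.00826), where 8.69% passed. With the log2 Gapdh ratio of each array as a covariate the estimates were close to the main ones, at -1.32 for males (SE 0.51, limma adjusted p = 0.596) and 1.45 for the interaction (SE 0.44, limma adjusted p = 0.470). Other estimates moved. The interaction of Hspd1 (93277_at) was 1.73 (SE 0.74, limma adjusted p = 0.544), against -0.06 without the covariate. It was 1.24 for Hspa1a, 0.92 for Hsp90aa1, -0.43 for Hspa1b and -1.01 for Hspd1 161140_r_at. The contrast of Hspe1 with Hspd1 was thus not kept in that model. In that model limma called 0% of probe sets in either comparison, with 557 in males and 659 for the interaction at an unadjusted p under 0.05. The male null group and a low Gapdh ratio cannot be told apart with these arrays, since no other array had such a ratio. The part of the astrocyte, microglia, choroid plexus and blood markers in the Hspe1 values was not tested.

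**Figure D2:**
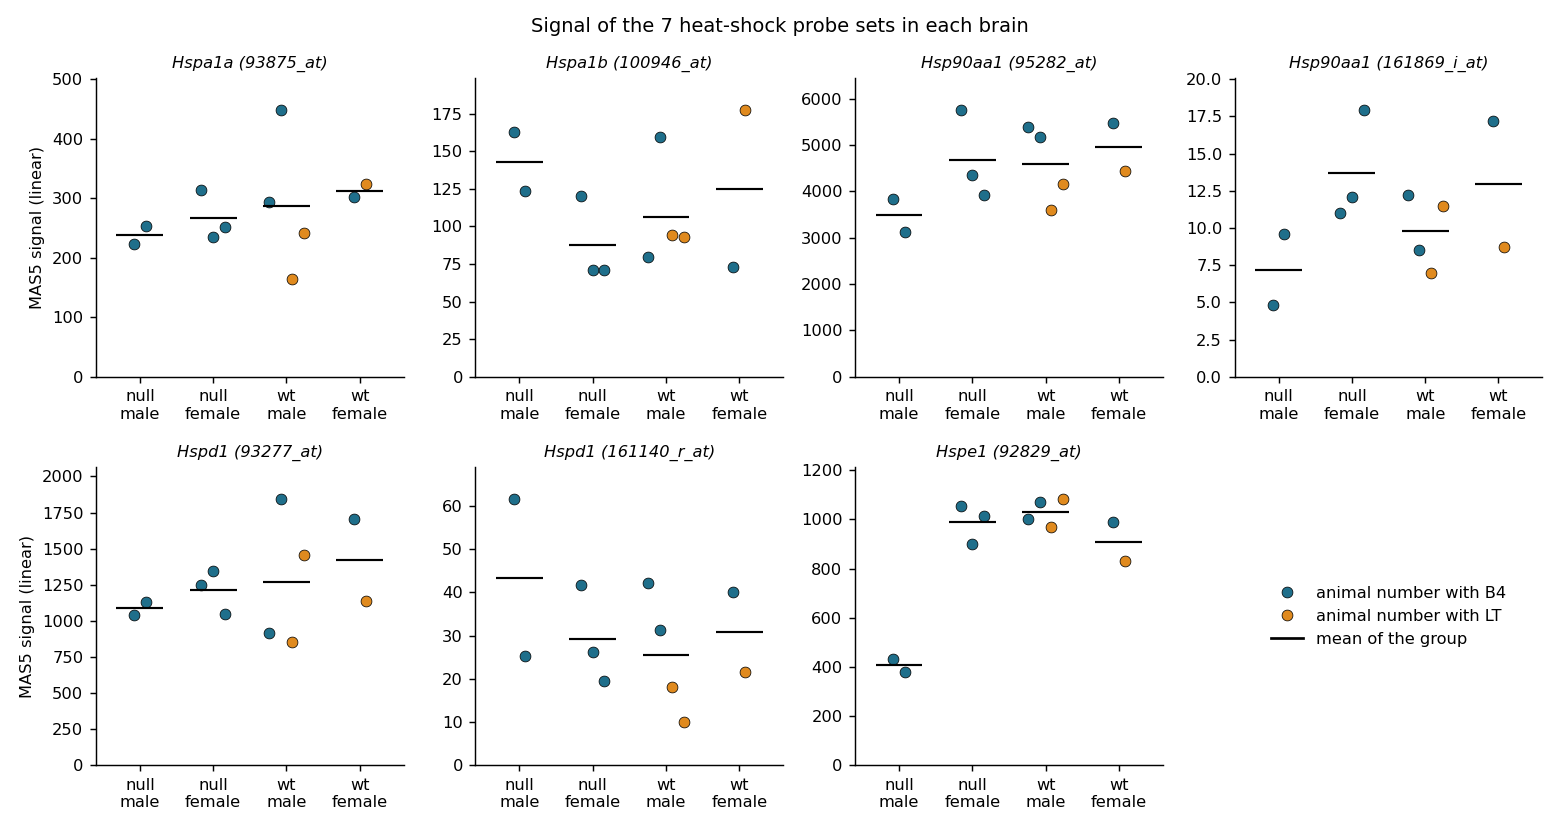
Signal of each of the 7 probe sets in each brain. The vertical axes give linear MAS5 signal from 0, each point is 1 brain, the black line is the mean of the group, and colours show the letters of the animal number. The Hspe1 points of the 2 male null brains, at 433.9 and 379.2, lie below all others, while the groups overlap for the other genes.

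Hspd1, the partner that forms the folding barrel, was measured by 2 probe sets. The brighter, 93277_at, had signals of 1043 and 1130 in male null brains and 1250, 1345 and 1047 in female null brains. In wild-type brains the lowest was 857.1, the median 1297 and the highest 1843. All 5 null values lay within the wild-type range, and the wild-type brains were more spread than the null brains. The mean was 1163 ± 132 in null brains (SD, n = 5) and 1319 ± 412 in wild-type brains (SD, n = 6). The log2 difference with sex as a covariate was -0.18 (SE 0.20, limma adjusted p = 0.610), and it was -0.15 in males and -0.21 in females, with a 95% interval of -0.74 to 0.44 in males. The lower limit of that interval lies above the whole interval of Hspe1 in males, although the difference between these 2 genes was not itself tested.

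The other Hspd1 probe set, 161140_r_at, is a dim one whose suffix marks probes picked under relaxed design rules. Its signals were 61.6 and 25.3 in male null brains and 41.8, 26.3 and 19.6 in female null brains, against a lowest of 10, a median of 26.5 and a highest of 42.3 in wild-type brains. Null 1 was above every wild-type brain and the other 4 null brains overlapped them. Its genotype difference was 0.40 (SE 0.44, limma adjusted p = 0.594), opposite in sign to that of the brighter probe set, and neither passed the threshold. In wild-type brains its 3 B4 values, 31.4 to 42.3, lay above its 3 LT values, 10 to 21.5, an order that 9.16% of tested probe sets had. Among B4 animals the genotype difference was -0.16.

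The spread of Hspd1 and Hspe1 among wild-type brains also differed in size. The SD of log2 signal over the 6 wild-type brains was 0.14 for Hspe1, and 8.44% of tested probe sets had a smaller one. It was 0.46 for Hspd1 (93277_at), with 81.5% of probe sets below it, and the median over all tested probe sets was 0.28. Over the 3 female null brains the SDs were closer, at 0.12 for Hspe1 and 0.19 for Hspd1, above those of 27.9% and 50.4% of tested probe sets.

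Over the 9 brains other than the male null ones, the log2 signals of Hspd1 and Hspe1 had a Pearson r of 0.29 (exact permutation p = 0.447, adjusted 0.711 over 10 gene pairs) and a Spearman rho of 0.40 (exact permutation p = 0.291, adjusted 0.582). Without the 2 brains farthest from the Hspd1 median r was 0.12, and among the 6 B4 brains it was 0.15 (exact permutation p = 0.796). The 3 LT brains are too few for a value. After median centring r was 0.64 (exact permutation p = 0.0677, not adjusted), so its size depends on the scaling, and it passed the threshold under none of these settings.

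**Figure D3:**
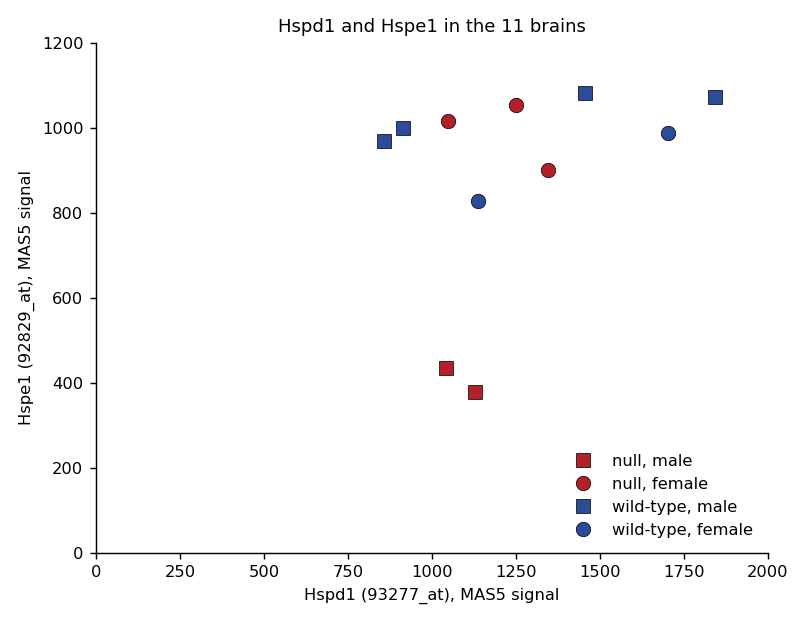
Signal of Hspd1 (horizontal axis) against signal of Hspe1 (vertical axis), both linear MAS5 signals, with 1 point per brain, squares for males and circles for females. The 2 male null brains have Hspe1 signals of 433.9 and 379.2 at Hspd1 signals of 1043 and 1130, which lie inside the range of the other brains, 857.1 to 1843.

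Hspa1a, one of the neighbouring pair of inducible Hsp70 genes, was measured by 93875_at. Its signals were 222.5 and 253.7 in male null brains and 314.4, 234.6 and 251.6 in female null brains, against a lowest of 163.9, a median of 297.7 and a highest of 447.8 in wild-type brains. Every null value was inside the wild-type range, whose extremes were both male, wild-type 4 and wild-type 2. The mean was 255 ± 35.4 in null brains (SD, n = 5) and 295 ± 94.0 in wild-type brains (SD, n = 6), and null minus wild-type was -0.21 on the log2 scale (SE 0.21, limma adjusted p = 0.572). It was -0.18 in males and -0.24 in females, and the interaction was -0.06 (SE 0.42, limma adjusted p = 0.941). Among B4 animals the genotype difference was -0.43 (SE 0.19, limma adjusted p = 0.187) and the male difference -0.61 (SE 0.22, limma adjusted p = 0.0576), neither past the threshold.

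Hspa1b, whose coding sequence is nearly identical to that of Hspa1a, was measured by 100946_at. Its signals were 162.4 and 123.4 in male null brains and 120.3, 71.0 and 71.2 in female null brains, against a lowest of 73.1, a median of 93.5 and a highest of 177.1 in wild-type brains. Null 4 and null 5 lay just below the lowest wild-type brain, and the other 3 null brains lay inside the wild-type range. The mean was 110 ± 38.9 in null brains (SD, n = 5) and 113 ± 44.1 in wild-type brains (SD, n = 6). On the log2 scale null minus wild-type was 0.04 (SE 0.29, limma adjusted p = 0.942), a sign that turned under quantile normalization (-0.07) and median centring (-0.14). It was 0.46 in males (SE 0.36, limma adjusted p = 0.357) and -0.43 in females (SE 0.38, limma adjusted p = 0.995), and the interaction of -0.89 did not pass the threshold (SE 0.53, limma adjusted p = 0.274).

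Because the transcripts of Hspa1a and Hspa1b are so alike, a probe set named for one of them may also bind the other, and the files give no probe sequences with which to tell. Over the 9 brains without the male null ones their log2 signals had r = 0.55 (exact permutation p = 0.130, adjusted 0.434) and rho = 0.62 (exact permutation p = 0.0857, adjusted 0.429). Among the 6 B4 brains r was 0.89 (exact permutation p = 0.0042, not adjusted). Both genes varied more among wild-type brains than most probe sets, with SDs of log2 signal of 0.48 for Hspa1a and 0.53 for Hspa1b, above those of 83.0% and 86.6% of tested probe sets.

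Hsp90aa1 was measured by 95282_at. Its signals were 3838 and 3128 in male null brains and 5748, 4352 and 3928 in female null brains, against a lowest of 3606, a median of 4805 and a highest of 5483 in wild-type brains. Null 2 was below and null 3 above every wild-type brain, so the null brains spanned the whole range of the series. The mean was 4199 ± 971 in null brains (SD, n = 5) and 4708 ± 761 in wild-type brains (SD, n = 6), and null minus wild-type was -0.25 on the log2 scale (SE 0.15, limma adjusted p = 0.337).

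Among wild-type brains Hsp90aa1 differed with the letters of the animal numbers. All LT mice were 6 weeks old and the B4 wild-type mice 7 to 9 weeks, so letters and age cannot be told apart here. The signals were 5395, 5179 and 5483 with B4 numbers and 3606, 4431 and 4154 with LT numbers. All B4 values lay above all LT values, and 9.16% of tested probe sets had that order. The share with the opposite order was not counted. Since all null animals have B4 numbers, the comparison within B4 animals leaves the LT animals out. There the genotype difference was -0.45 (SE 0.16, limma adjusted p = 0.124), and the male difference was -0.61 (SE 0.18, limma adjusted p = 0.0257), past the threshold in a comparison where 30.5% of probe sets passed. With all animals the male difference was -0.38 (SE 0.19, limma adjusted p = 0.144), and the female one was -0.10 (SE 0.20, limma adjusted p = 0.995). The interaction was 0.29 with all animals (limma adjusted p = 0.521), so the male and female differences were not shown to differ. Among B4 animals, where wild-type 3 is the only female wild-type brain, it was 0.36. The male difference in B4 animals again rests on the 2 arrays with the low Gapdh ratio, whose part in it was not tested.

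The other Hsp90aa1 probe set, 161869_i_at, whose suffix marks a set with fewer probes than usual, was the 1 of the 7 that did not pass the filter on low signals. Its signals were 4.8 and 9.6 in male null brains and 11, 12.1 and 17.9 in female null brains, against a lowest of 7.0, a median of 10.1 and a highest of 17.2 in wild-type brains. The values are far below the filter of 25.8, and null and wild-type brains overlapped. In a fit without the filter its genotype difference was -0.20 (SE 0.31, limma adjusted p = 0.784).

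With the sexes pooled and sex as a covariate, 0 of the 6 tested member probe sets passed the threshold for genotype in limma and 1, Hspe1, had an unadjusted p under 0.05. Over all probe sets 0.0268% passed and 23.1% had an unadjusted p under 0.05. The Hspe1 difference was -0.65 (SE 0.23, limma adjusted p = 0.130), and 0.13 without the 2 male null brains. It passed the threshold when wild-type 5 was left out (-0.86, limma adjusted p = 0.0305), but 11.7% of all probe sets did so in that fit, and its adjusted p was above the threshold without any other single brain. The 6 probe sets had a median difference of -0.19, against 0.03 over all tested probe sets, with 2 positive and 4 negative.

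Within males 1 of the 6 passed, against 32.6% of all probe sets, and within females 0 did, against 0%, with 0 member probe sets and 308 of all probe sets at an unadjusted p under 0.05 in limma. For the interaction 1 of the 6 passed, against 15.9% of all. For sex, female minus male, 0 of the 6 passed in limma, against 0% of all, and 1, again Hspe1 (0.51, SE 0.23, limma adjusted p = 0.386), had an unadjusted p under 0.05, as did 12.4% of all probe sets. Without the male null brains that sex difference of Hspe1 was -0.19 (limma adjusted p = 0.685). The remaining sex differences lay between -0.27 for Hspa1b and 0.26 for Hsp90aa1.

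**Figure D4:**
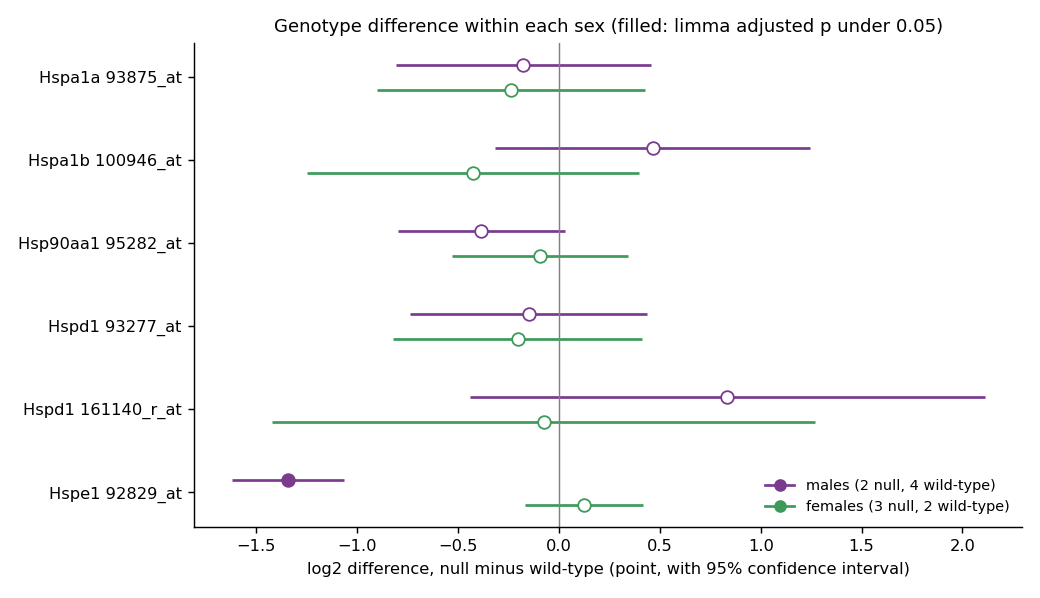
Genotype difference of the 6 tested probe sets within each sex. The horizontal axis gives the log2 difference, null minus wild-type, with its 95% confidence interval, purple for males and green for females, and a filled point marks a limma adjusted p under 0.05. The male difference of Hspe1, -1.34, is the 1 filled point, and all other intervals include 0.

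Across the 9 brains other than the male null ones, 10 pairs of the 5 genes were compared and 0 passed after adjustment. The strongest relation was that of Hspa1a with Hsp90aa1, at r = 0.74 (exact permutation p = 0.0162, adjusted 0.162) and rho = 0.68 (exact permutation p = 0.0503, adjusted 0.429). Its r was 0.69 without the 2 brains farthest from the Hspa1a median and 0.57 among the 6 B4 brains. Hspa1a with Hspd1 had r = 0.62 (exact permutation p = 0.0696, adjusted 0.348), and -0.13 without the 2 farthest brains, so that value rests on those brains.

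The genes whose log2 signal was most like each member were found over the same 9 brains and carry no test. For Hspa1a they were Jmjd6 (r = 0.98), which encodes an oxygenase of the nucleus, Eif3l (0.91), a subunit of a translation initiation factor, and Pelo (0.90), a factor that rescues stalled ribosomes. For Hspa1b they were Dnajb11 (0.93), an Hsp40 of the endoplasmic reticulum, Pex2 (0.90), needed for peroxisomes, and Mgll (0.89), a lipase that breaks down an endocannabinoid. For Hsp90aa1 they were Eif1a and Pkia (both 0.95), a translation initiation factor and an inhibitor of protein kinase A, and Cltc (0.95), the clathrin heavy chain. For Hspd1 they were Ogfod2 (0.95), Cd164 (0.94), which encodes a sialomucin, and Acvr2a (0.93), an activin receptor. For Hspe1 they were Psmd10 (0.93), a chaperone of proteasome assembly, Nudcd2 (0.92) and Tank (0.91), an adaptor of innate immune signalling. With 9 brains and 6767 probe sets compared, high values are to be found for any gene.

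The wider chaperone system was followed through 7 lists with 101 genes in all, of which 80 had a probe set and 72 were tested, each through its brightest probe set. For genotype with sexes pooled 0 of the 72 passed in limma, against 0.0268% of all probe sets, and 23 had an unadjusted p under 0.05, against 23.1% of all. In males 22 were higher and 9 lower in null brains at an adjusted p under 0.05, against 32.6% of all probe sets called, 1330 higher and 1103 lower. In females 0 passed in limma, against 0% of all, with 2 at an unadjusted p under 0.05. The interaction, the female genotype difference minus the male one, passed for 14, with 5 positive and 9 negative, against 15.9% of all. The median male difference of the 72 was 0.27, against 0.05 over all tested probe sets. Centring each array on its median moved these to -0.01 and -0.23, and the counts in males to 13 higher and 15 lower, so the balance of directions depends on the scaling. The counts of each list in males are to be read against the same 32.6%.

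Among the other Hsp70 and Hsp110 genes, 3 of 7 tested were higher and 1 lower in male null brains, where 32.6% of all probe sets passed, and 2 were higher and 2 lower after median centring. Hspa4, an Hsp110 exchange factor, had signals of 806 to 1166 in male null brains, against 1348 to 2102 in the others, with an interaction of 1.05 (SE 0.25, limma adjusted p = 0.0140) and the lowest genotype difference of its list, -0.38. Hspa4l, its relative, moved the other way, with 320.7 to 327.1 in male null brains, against 143.5 to 172.7 in the others, and an interaction of -1.15 (SE 0.21, limma adjusted p = 0.00421). Hspa2, an Hsp70 known from the testis, had the highest genotype difference, 0.74 (SE 0.37, limma adjusted p = 0.25). Hspa9, the mitochondrial Hsp70 that passes imported proteins on to Hsp60, had a genotype difference of -0.33 (SE 0.15, limma adjusted p = 0.206) and, in males, -0.43 (limma adjusted p = 0.107).

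Of the Hsp40 and nucleotide exchange genes, 6 of 19 tested were higher and 2 lower in male null brains, against 32.6% of all probe sets called. After quantile normalization 6 were higher and 4 lower, and after median centring 3 and 5, so the balance turned. Dnajc5, the cysteine string protein of synaptic vesicles, had signals of 311.9 to 326.7 in male null brains, against 46.6 to 104.6 in the others. Its interaction was -2.15 (SE 0.40, limma adjusted p = 0.00498) and its genotype difference, 1.22, was the highest of the list. Bag6, which guides tail-anchored and misfolded proteins, had 379.7 to 440.9, against 89.4 to 132.5, with an interaction of -2.13 (SE 0.26, limma adjusted p = 0.000679). Dnajb2, a neuronal Hsp40, had an interaction of -1.16 (SE 0.23, limma adjusted p = 0.00645). Dnajc8, an Hsp40 that associates with the spliceosome, was lower, with 877.6 to 951.1 in male null brains, against 1382 to 2272 in the others, an interaction of 1.13 (SE 0.21, limma adjusted p = 0.00478) and the lowest genotype difference, -0.47.

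The Hsp90 family and its co-chaperones had 5 of 10 tested genes higher and 2 lower in male null brains, against 32.6% of all probe sets called. The median male difference was 0.80, and it was 0.72 after quantile normalization and 0.52 after median centring. Stip1, the adaptor that joins Hsp70 to Hsp90, had signals of 269.2 to 386.7 in male null brains, against 37.5 to 75.1 in the others. Its genotype difference was 1.70 (SE 0.40, limma adjusted p = 0.0852) and its interaction -2.64 (SE 0.35, limma adjusted p = 0.000890). Cdc37, which brings kinases to Hsp90, had 328.9 to 452.9, against 147.5 to 248.9, with an interaction of -0.995 (SE 0.29, limma adjusted p = 0.0340).

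Both immunophilins of the Hsp90 list that passed went the other way. Fkbp4, which links Hsp90 to steroid receptors, had signals of 685.2 to 729.7 in male null brains, against 1198 to 1460 in the others, with an interaction of 1.08 (SE 0.15, limma adjusted p = 0.00114) and the lowest genotype difference of the list, -0.52. Ppid, a cyclophilin that binds Hsp90, had 342.4 to 346.8, against 491.3 to 847.9, with an interaction of 1.39 (SE 0.23, limma adjusted p = 0.00293). Fkbp5, the other FK506-binding gene tested, did not pass in males (0.44, limma adjusted p = 0.183).

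Mitochondrial import and protein quality genes, which work beside Hsp60 and Hsp10, had 2 of 20 tested higher and 1 lower in male null brains, against 32.6% of all probe sets called. After quantile normalization 1 was higher and 3 lower, and after median centring 1 and 4. Tomm70a, an import receptor of the outer membrane, had signals of 679.1 to 719.2 in male null brains, against 1127 to 1766 in the others, with an interaction of 1.37 (SE 0.20, limma adjusted p = 0.00142) and the lowest genotype difference, -0.51. Timm44, which tethers mitochondrial Hsp70 to the import channel, had 212.9 to 283.6, against 96.0 to 167.6, with an interaction of -1.18 (SE 0.29, limma adjusted p = 0.0178) and the highest genotype difference, 0.59. The remaining 17 did not pass in males, and the list's median male difference was -0.01, against 0.06 after quantile normalization and -0.29 after median centring.

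The 3 further lists cover the cytosolic chaperonin with prefoldin, the small heat-shock proteins and the transcription regulators. Of the cytosolic chaperonin and prefoldin genes 4 of 12 were higher and 1 lower in male null brains, against 32.6% of all probe sets called, with 6 and 1 after quantile normalization and 2 and 1 after median centring. Cct8, a chaperonin subunit, had an interaction of -1.12 (SE 0.29, limma adjusted p = 0.0220), and the extremes of genotype were Pfdn6 (0.66) and Cct6a (-0.35). Of the small heat-shock proteins 1 of 3 was higher and 1 lower, as under both other scalings. Hspb8 had 177.3 to 179.2 in male null brains, against 63.7 to 105.5 in the others, with an interaction of -1.01 (SE 0.30, limma adjusted p = 0.0400), and Cryab, αB-crystallin, had a genotype difference of -0.96 (SE 0.20, limma adjusted p = 0.0773). Among the heat-shock transcription regulators 1 of 3 was higher and 1 lower, against 0 and 0 after quantile normalization and 0 and 1 after median centring. The genotype extremes were 0.41 for Ddit3, a stress-induced transcription factor, and -0.36 for Hsbp1, a protein that binds Hsf1.

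Several of the probe sets that were low in male null brains, those of Dnajc2, Dnajc8, Fkbp4, Tomm70a, Cct6a and Cryab, bear a suffix that marks probes shared by related sequences. Their gene assignment is less certain. The probe set of Hspbp1, which was higher in male null brains (0.54, limma adjusted p = 0.0167), bears the same suffix. That of Hspe1 does not.

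**Figure D5:**
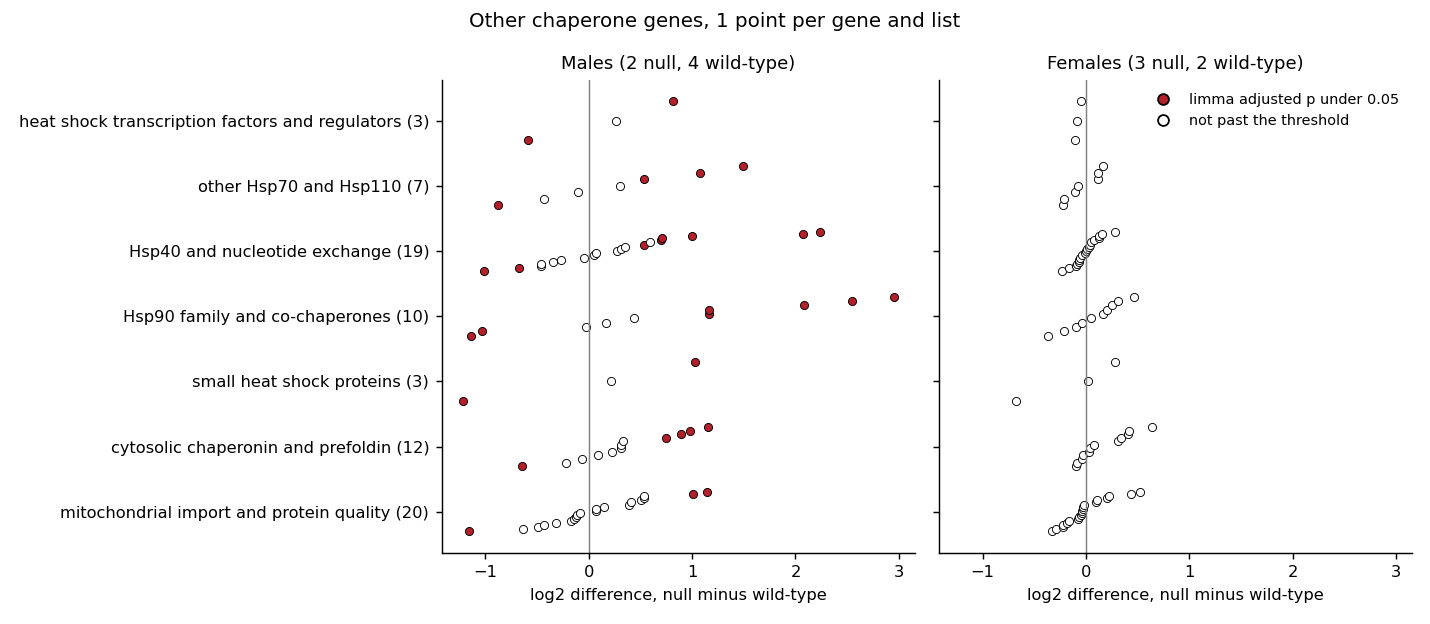
Genotype difference of the tested genes of 7 chaperone lists, in males on the left and females on the right. The horizontal axis gives the log2 difference, null minus wild-type, each point is 1 gene of a list with the number tested in brackets, and red marks a limma adjusted p under 0.05. In males 22 genes were higher and 9 lower in null brains, and in females 0 passed.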

How the data were processed

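Total RNA of 11 whole brains was hybridised to 1 array each. The deposited values are intensities on a linear scale, made by the authors with MAS5 per the submitters' processing notes. The MAS5 version, its background settings and detection calls are not given in the sources used here. Precision is limited by the number of arrays. Each array was used as scaled. Of 12488 probe sets, 10855 were annotated with 1 gene, 396 with several and 1237 with none, and 66 controls were left out. Intensities below the 10th percentile (3.1) were raised to it and log2 was taken, which understates differences of dim probe sets. A filter at the 40th percentile of mean log2 signal (4.69, or 25.8 unlogged) left 7453 probe sets to test.

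Tests used limma 3.58.1 in R 4.3.3 (lmFit, eBayes with a variance trend), with Benjamini-Hochberg adjustment over all 7453 and a threshold of 0.05. The genotype difference (null minus wild-type) and the sex difference (female minus male) come from 1 additive model of both. The interaction and the differences within each sex come from a model of the 4 means of genotype and sex. Correlations used two-sided exact permutation. The limma models were tested on simulated data. Named list genes were those past the threshold for genotype, sex or interaction and the list's highest and lowest genotype difference. Hspa9, Fkbp5 and Hspbp1, with their male values, and Dnajc2 were added after the values were seen. The 3 most correlated genes of each member were also named. The members and lists were chosen with earlier results of these data known. Nothing in the labels says that the mice of a group came from separate litters, so p-values cover the spread between these mice only. Promoter windows are RefSeq's, build GRCm38.p6. Array coordinates were not used, since the files name no build.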

Additional observations from a re-analysis of the deposited data

Results flagged for a closer look

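The genotype difference of Hspe1 differed between the sexes by a test of that difference. It was -1.34 in males and 0.13 in females, and the interaction was 1.47 on the log2 scale (SE 0.19, limma adjusted p = 0.000768), with both male null brains below all other 9 brains. Of all tested probe sets 15.9% passed the same test. Across the 7 member probe sets, 14 groups of 5 or 6 brains were examined for a brain far from the rest of its group, and 0 were found. A search for a single brain is not made to find brains that lie apart together, as the male null brains did for Hspe1.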

How the results depend on the processing

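No paired analysis was possible because the labels give no replicate numbers that pair animals. The interaction of Hspe1 kept its direction and its call under both other normalizations, both other floors, no filter, no variance trend, the number letters as a block, B4 animals only, age as a covariate and without each brain in turn (1.34 to 1.60, and -1.44 to -1.25 for the male difference, an analysis added after seeing the data). Where a left-out brain, or the limit to B4 animals, leaves 1 animal of a sex and genotype, that animal is assumed to vary like the others. With the Gapdh ratio as a covariate the interaction was 1.45 and the male difference -1.32, neither past the threshold, so 0 member probe sets passed (659 of all probe sets had an unadjusted p under 0.05 in limma). For genotype 0 to 1 member probe sets passed without each brain in turn. Over all probe sets the 2 calls for genotype became 1 under quantile normalization, median centring or no covariate, 29 in B4 animals, and 1 to 873 without single brains (873 with wild-type 5 left out, 199 with wild-type 3, 9 with null 5). They became 0 in limma with no filter (2102 at an unadjusted p under 0.05), without the male null brains (263), with the Gapdh ratio (347) and with age (847).

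Several differences changed sign. None of them passed the threshold in the main fit or where the sign differed, and not all of them were small. For Hspa1b genotype the values were -0.066 (quantile), -0.14 (median centring), -0.43 (no male null), -0.58 (Gapdh), -0.030 (no covariate) and -0.15 to 0.37 without single brains, and for sex 0.15 (no male null) and 0.037 (Gapdh). For Hspd1 161140_r_at genotype they were -0.23 (letters as a block), -0.16 (B4), -0.076 (no male null), -0.15 (Gapdh) and -0.32 (age), and for sex 0.18 (quantile), 0.16 (median centring), 0.41 (no male null), 0.25 (Gapdh), 0.48 (age) and -0.32 to 0.31 without single brains. Hspe1 had 0.13 (no male null) and 0.27 (Gapdh) for genotype, against -0.65 in the main fit, and -0.19 (no male null) for sex. The interaction of Hspa1a was 0.055 (quantile), 0.16 (median centring), 0.42 (B4), 1.24 (Gapdh), 0.054 (age) and -0.31 to 0.18 without single brains, and that of Hspd1 93277_at 0.16 (median centring), 1.73 (Gapdh) and -0.35 to 0.23. The correlation of Hspd1 with Hspe1 was -0.012 with the other Hspd1 probe set and otherwise 0.12 to 0.64. Median centring moved the median genotype difference of all probe sets to -0.15, against 0.03 as scaled. In males the called probe sets were 1330 higher and 1103 lower, against 765 and 2004 after median centring and 1119 and 1425 after quantile normalization. The cause of these changes was not tested. With 2 male null and 2 female wild-type arrays, small differences within a sex were not detectable.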
